A study of Mus musculus with 4 samples.

Results

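The comparison was between nuclei of mouse hearts given YAP5SA and nuclei of control hearts, both from litters whose mothers ate chow, with the cells other than cardiomyocytes included. A nucleus entered when it had at least 500 detected genes and at most 5% of its unique molecular identifiers (UMIs, 1 per captured RNA molecule) from mitochondrial genes. It was called a cardiomyocyte when 6 cardiomyocyte genes (Ttn, Ryr2, Trdn, Ctnna3, Rbm20 and Tnnt2) together held at least 0.8% of its UMIs, and an other cell when they held less than 0.5%. The filter left 15042 chow nuclei of the 34165 in the series, 6373 of them from the control library and 8669 from the YAP5SA library. All animals were wild-type mice: controls received saline at postnatal day 7, and YAP5SA animals received the viral vector AAV9-cTnT-YAP5SA on the same day. Hearts were taken at postnatal day 12, after the mothers had been 5 days on the diet. The cTnT promoter directs the transgene to cardiomyocytes. The controls had no empty virus, each group was 1 library, and the sources used here do not say how many hearts a library pooled.

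YAP is the transcriptional coactivator at the end of the Hippo pathway, in which the kinases Stk3 and Stk4 activate Lats1 and Lats2, which phosphorylate YAP and keep it out of the nucleus. YAP5SA carries serine to alanine changes at the Lats sites and escapes this control; in the nucleus it acts through TEAD transcription factors on genes for the cytoskeleton, the matrix, secreted signals and growth. Cardiomyocytes of the mouse lose most of their capacity to divide soon after birth, and active YAP is known for reopening a fetal and proliferative programme in them. The heart also holds fibroblasts, which build the matrix, blood vessel endothelium, the endocardium that lines its chambers, pericytes, epicardium and macrophages, all of which can read signals that cardiomyocytes release.

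Several properties of the libraries bear on every value. Sample titles defined the groups, but the treatment entry of the YAP5SA chow library names a high-fat maternal diet and that of the control library titled with high-fat diet (HFD) names chow. Sex differed within the chow pair: Xist gave 106671 UMIs in the control library and 298 in the YAP5SA library, whereas the Y-linked Ddx3y gave 1 and 4760 UMIs, so the control library was female and the YAP5SA library male by these genes. Both HFD libraries were female by the same genes, and their contrast, which shares no library with the chow pair, is given beside it throughout. The chow libraries held 43408234 and 51721988 UMIs in 6977 and 9368 barcodes, shared 19 barcode sequences, and had median depths of 5206 and 4481 UMIs per kept nucleus. With 1 library a group there is no replicate error and no test. Values are UMIs summed over nuclei and scaled by each sum's total to CPM, the usual scaled count of RNA sequencing, folds are YAP5SA over control, the control comes first in each pair of values, and 95% intervals cover counting error only.

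The cardiomyocyte class held 4024 control nuclei (63.1%, exact binomial interval 61.9 to 64.3%) and 5296 YAP5SA nuclei (61.1%, 60.1 to 62.1%). The other cells numbered 2292 (36.0%) and 3172 (36.6%). Nuclei between the cuts numbered 57 (0.894%) in the control library and 201 (2.32%) in the YAP5SA library and were left out of both sums. The cardiomyocyte genes themselves stood at a lower share in YAP5SA: the median cardiomyocyte nucleus gave 4.81% of its UMIs to the 6 genes in the control library and 3.15% in the YAP5SA library. Just inside the upper cut, at 0.8 to 0.9%, lay 11 control and 91 YAP5SA nuclei, and just outside it, at 0.7 to 0.8%, 15 and 70. Just inside the lower cut, at 0.4 to 0.5%, lay 55 and 67 nuclei, and just outside it, at 0.5 to 0.6%, 23 and 52. A list of 14 other cardiomyocyte markers, none of which made the rule, was found whole in the class in both libraries, at a sum of 19507.5 CPM in the control and 12807 CPM in YAP5SA, with 7 of them at least 2-fold lower in YAP5SA.

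**Figure D1:**
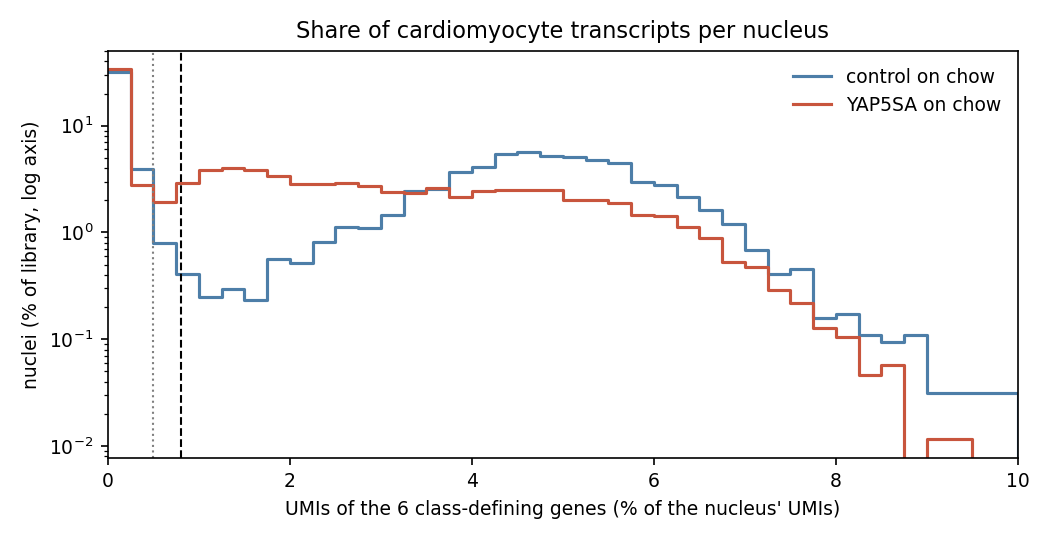
Share of each chow library's kept nuclei (percent, log axis) by the share of a nucleus's UMIs that came from the 6 cardiomyocyte genes (percent, bins of 0.25), with the cuts at 0.5% (dotted) and 0.8% (dashed). Both libraries have a peak of other cells at the left and a broad cardiomyocyte peak, which lies lower in YAP5SA (median 3.15%) than in the control (4.81%).

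The cardiomyocyte sums held 30017215 UMIs in the control and 34753591 in YAP5SA, and 8901 genes had a mean of at least 10 CPM over the chow pair. Of these, 665 (7.47%) stood higher in YAP5SA by 2-fold or more and 460 (5.17%) lower, with a median log2 fold over all genes of -0.004. On HFD, 588 (6.61%) of the same genes were at least 2-fold higher and 251 (2.82%) lower. The genes higher in both pairs numbered 307, which is 46.2% of the chow list and 52.2% of the HFD list. Those lower in both numbered 103 (22.4% and 41.0%), and 14 were past 2-fold in opposite directions.

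The genes with the highest folds were close to silent in control cardiomyocytes. Igfbp2, a secreted protein that binds insulin-like growth factors, gave 0 UMIs in the control library and 47.2 CPM in YAP5SA, at least 472-fold higher against a floor of 3 UMIs. On HFD it gave 0.0654 CPM (2 UMIs) and 15.1 CPM, with a log2 interval of 5.995 to 10.90. Cemip, which breaks down hyaluronan in the matrix (chr7:83932857-84086502, minus strand, mm10), stood at 4.16 CPM in the control and 772 CPM in YAP5SA, a log2 fold of 7.53 (7.28 to 7.80), and at 5.83 and 521 CPM on HFD. The patched-family membrane protein gene Ptchd4 stood at 1.33 and 201 CPM on chow and at 1.15 and 79.9 CPM on HFD. In all of these genes both YAP5SA libraries were high and both control libraries were low, with the higher level on chow.

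The organic ion transporter gene Slc22a22 stood at 0.267 and 86.0 CPM (log2 fold 8.25, 7.35 to 9.55) and the matrix collagen Col12a1 at 2.57 and 279 CPM (6.76, 6.44 to 7.11). Cdk15, a cyclin-dependent kinase family member, stood at 0.133 and 20.3 CPM, Scel, a component of cornified epithelia, at 0.466 and 52.1 CPM, and the cytokine gene Tnfsf15 at 0.533 and 58.5 CPM. Sema3e, a guidance cue that repels endothelial cells through plexin D1, stood at 2.80 and 191 CPM (6.08, 5.78 to 6.42) and, on HFD, at 1.24 and 111 CPM. Pak3, a p21-activated kinase of the actin cytoskeleton, stood at 10.2 and 661 CPM, and the endocytic receptor gene Lrp2 at 0.633 and 41.3 CPM. The folds of Scel and Sema3e, 6.75 and 6.08, were 5.34 and 5.48 with cardiomyocytes cut at 1.5% of UMIs, and 8.13 and 7.07 with doublets left out. Every one of the 12 genes with the highest chow folds was also at least 4.33 log2 units higher in YAP5SA on HFD.

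The 12 genes with the lowest folds included several of mature cardiac excitation. Kcnip2, the auxiliary subunit of the transient outward potassium current, stood at 63.5 CPM in the control and 6.56 CPM in YAP5SA (log2 fold -3.27, -3.48 to -3.08), and at 57.0 and 15.2 CPM on HFD. Pde4d, a phosphodiesterase that breaks down cyclic AMP, stood at 3696.5 and 771 CPM on chow and at 4017 and 1355 CPM on HFD. Srrm4, a splicing regulator of microexons, stood at 26.9 and 2.16 CPM, and Hs3st5, which modifies heparan sulfate, at 118 and 11.7 CPM. The chow folds of Phf24, Doc2g, Sbk1, Plekhh1 and Syt7 ran from -3.03 to -2.21, and their HFD folds from -3.14 to -1.53. For D7Ertd443e and Paqr9 the chow folds of -2.62 and -2.44 stood beside HFD folds of -0.42 and -0.28.

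**Figure D2:**
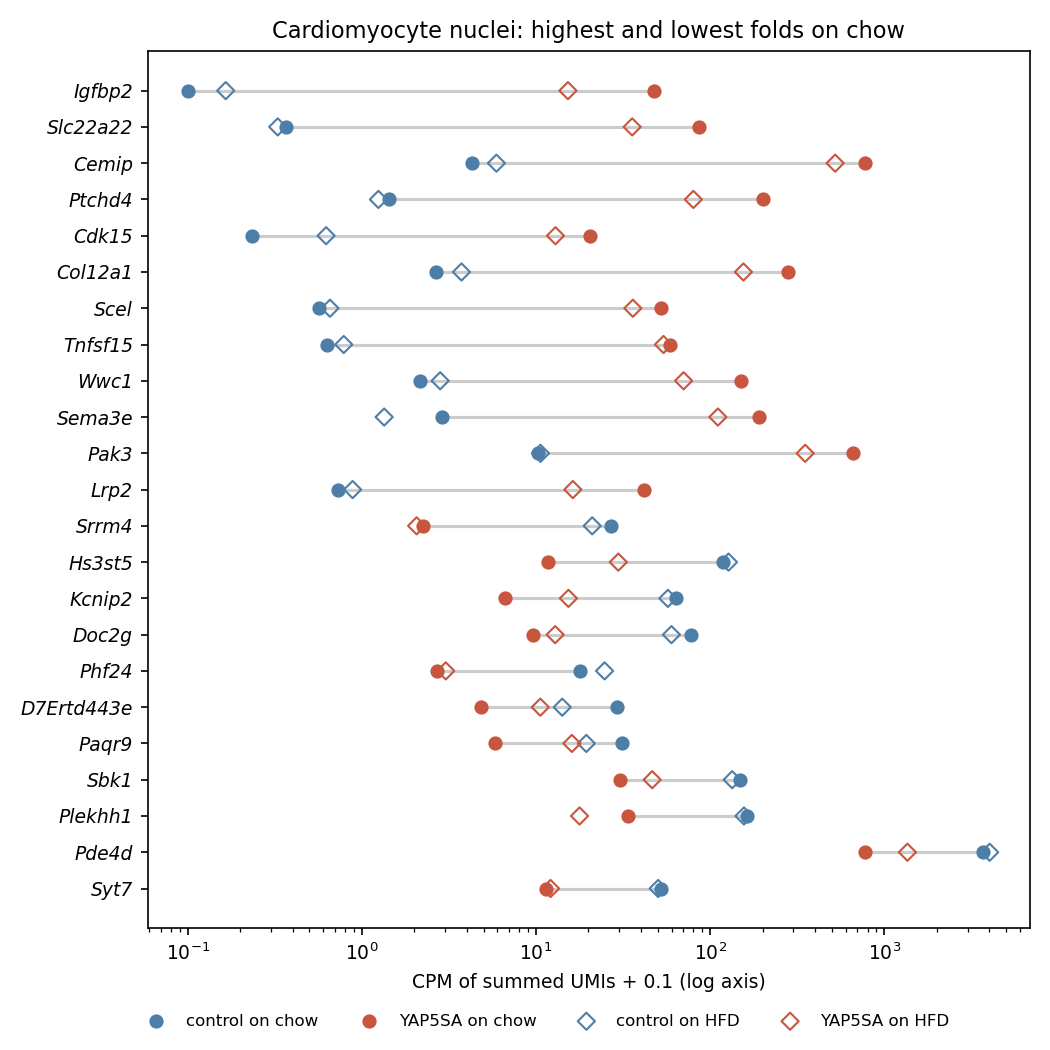
Levels in cardiomyocyte nuclei (CPM + 0.1, log axis) of the named genes with the highest and the lowest chow folds, 1 point a library: chow as filled circles joined by a line, HFD as open diamonds, control blue and YAP5SA red. The YAP5SA points lie far right of the control points for the upper genes on both diets, with Cemip at 4.16 and 772 CPM on chow.

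A list of 20 YAP and TEAD target genes was collected from general knowledge, but with earlier results of these data known. Its counts are therefore a description. The listed genes were mostly higher in YAP5SA cardiomyocytes: of the 18 compared, 14 were at least 2-fold higher and 1 lower. Their median log2 fold was 2.0 (1.09 on HFD). Ccn2, a matrix-associated growth regulator also called CTGF, stood at 33.5 and 332 CPM (3.31, 3.22 to 3.40), and at 39.7 and 149 CPM on HFD. Its relative Ccn1 stood at 12.0 and 163 CPM (3.77, 3.61 to 3.93) on chow and at 16.7 and 61.8 CPM on HFD. Ankrd1, a stress-responsive titin-binding cofactor, stood at 1026 and 2746 CPM on chow and at 811 and 1562 CPM on HFD. The feedback genes Wwc1, Amotl2 and Lats2, whose products restrain YAP, had log2 folds of 6.18, 2.79 and 1.30. The exception was F3, tissue factor, at 29.6 and 13.9 CPM.

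Promoters of the target genes were examined for the TEAD hexamer, since it is the letter pattern through which YAP's partners are known to bind. The hexamer was searched as GGAATG and, for the opposite strand, CATTCC, in the 250 bases before each RefSeq start (table build GRCm38.p6). It stood in 7 of the 17 promoters matched to 15 of the 20 listed target genes (41.2%), in 3 of the 16 promoters of 11 of the 12 genes with the highest cardiomyocyte folds (18.8%), and in 2 of the 9 promoters of 8 of the 12 with the lowest (22.2%). The share was 1 of 8 promoters (12.5%) for 7 of the 12 genes with the highest folds in other cells, and 4153 of all 32851 promoters (12.6%). The target list holds genes known for TEAD binding, so its share describes the choice of the list. Shown here are Ankrd1 and Ccn1, target genes at least 2-fold higher in cardiomyocytes and in other cells, Tnfsf15, among the highest in cardiomyocytes, and Thbs4, with the highest fold in other cells. Each is written 5′ to 3′ on the gene's strand, with the hexamer in capitals. All lie on the minus strand, Ankrd1 at chr19:36119845-36120094, Ccn1 at chr3:145649986-145650235, Tnfsf15 at chr4:63745060-63745309 and Thbs4 at chr13:92794819-92795068.
Ankrd1: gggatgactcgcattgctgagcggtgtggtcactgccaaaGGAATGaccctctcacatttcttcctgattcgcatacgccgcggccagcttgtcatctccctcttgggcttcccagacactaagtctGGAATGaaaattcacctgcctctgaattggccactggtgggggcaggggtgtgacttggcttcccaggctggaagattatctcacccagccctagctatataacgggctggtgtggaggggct
Ccn1: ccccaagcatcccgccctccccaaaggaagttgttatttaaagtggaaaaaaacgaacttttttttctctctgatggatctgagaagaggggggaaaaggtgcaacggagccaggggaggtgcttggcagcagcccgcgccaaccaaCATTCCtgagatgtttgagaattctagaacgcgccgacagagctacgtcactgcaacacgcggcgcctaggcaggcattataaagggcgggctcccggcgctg
Tnfsf15: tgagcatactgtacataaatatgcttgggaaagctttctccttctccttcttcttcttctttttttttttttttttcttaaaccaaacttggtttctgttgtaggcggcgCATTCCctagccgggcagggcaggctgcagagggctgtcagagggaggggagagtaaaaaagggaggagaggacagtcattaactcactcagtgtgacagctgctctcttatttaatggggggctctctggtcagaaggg
Thbs4: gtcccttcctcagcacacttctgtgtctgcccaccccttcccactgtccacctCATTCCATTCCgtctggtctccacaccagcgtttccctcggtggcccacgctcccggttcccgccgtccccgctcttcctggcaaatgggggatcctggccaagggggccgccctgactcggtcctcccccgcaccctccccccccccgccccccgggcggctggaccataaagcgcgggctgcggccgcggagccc
Counted back from the start site, the hexamers begin 210 and 123 bases upstream in Ankrd1, 103 in Ccn1 and 140 in Tnfsf15. In Thbs4 a pair of copies that overlap by 1 base begin 197 and 192 bases upstream. Both listed Ptchd4 promoters hold 1 copy, 146 and 8 bases before their starts, and the Cemip window holds none. A match is a pattern of letters and not a measured binding site.

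Among the 18 Hippo pathway components compared, 4 were at least 2-fold higher and 0 lower (median 0.43, HFD 0.16). Vgll3, a TEAD-binding cofactor that competes with YAP, stood at 6.13 and 187 CPM (4.92, 4.72 to 5.15) and at 10.2 and 91.4 CPM on HFD. Tead4 stood at 4.70 and 45.2 CPM, Vgll4 at 95.5 and 337 CPM, and the kinase Stk4 at 28.2 and 64.9 CPM. Tead1, at 628 and 1170 CPM, was inside the 2-fold limit. Yap1 itself stayed within 2-fold, at 135 CPM in control and 106 CPM in YAP5SA cardiomyocytes, and 122 and 121 CPM on HFD. The sources used here do not say which part of the counted Yap1 transcript the transgene shares.

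Secreted ligands, the signals through which cardiomyocytes could reach their neighbours, had a median log2 fold of 0.76 (HFD 0.18) over the 36 of 56 that were compared, with 15 higher and 1 lower. This median was 1.46 when a mean of 50 CPM was asked and 0.45 with cardiomyocytes cut at 1.5% and other cells at 0.3%. Ccl2, the chemokine that draws monocytes through the receptor Ccr2, stood at 1.07 CPM (32 UMIs) in control cardiomyocytes and 34.5 CPM in YAP5SA, and at 4.78 and 14.5 CPM on HFD. Nuclei classed below as fibroblast-like held Ccl2 at 8.01 and 249 CPM on chow. Fibroblast markers stood in chow cardiomyocytes at 4.91 to 20.8% of their fibroblast level in the control and 7.58 to 26.0% in YAP5SA. Ccl2 lay inside both ranges, and the part of fibroblast RNA in its difference was not tested. Inhba, the activin A subunit, stood at 6.16 and 106 CPM (4.11, 3.90 to 4.33) on chow and at 5.99 and 86.2 CPM on HFD. Csf1, a growth factor of macrophages, stood at 16.6 and 56.5 CPM on chow and at 16.9 and 60.9 CPM on HFD. In these 3 genes the YAP5SA library was the higher one in each pair.

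Tgfb2 and Tgfb3, isoforms of the growth factor that activates fibroblasts, stood at 72.8 and 458 CPM (2.65, 2.59 to 2.72) and at 4.198 and 88.3 CPM (4.39, 4.14 to 4.66). Their HFD folds were 1.25 and 1.82. The natriuretic peptide genes Nppa and Nppb, markers of wall stress, stood at 57.2 and 337 CPM and at 122 and 526 CPM, against 66.6 and 113 CPM and 83.3 and 155 CPM on HFD. Pdgfc, Igf1 and Slit3 had chow folds of 2.18, 1.68 and 1.46. Angpt1, the blood vessel growth factor that binds the receptor Tek, stood at 89.0 and 30.1 CPM (-1.56, -1.67 to -1.46), and Vegfa at 589 and 350 CPM, within the 2-fold limit. Angpt1 was also lower on HFD, at 155 and 72.9 CPM.

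In the matrix and cytoskeleton lists, genes higher in YAP5SA cardiomyocytes outnumbered lower ones. Of 41 collagen and matrix genes compared, 12 were at least 2-fold higher and 0 lower (median 0.53, HFD -0.03). Col4a3 and Col4a4, chains of the type IV collagen of kidney and lung basement membranes, stood at 20.9 and 893 CPM and at 26.1 and 889 CPM, and Col8a1 at 12.9 and 283 CPM. The fibrillar Col1a1 stood at 71.0 and 73.8 CPM and Col3a1 at 194 and 147 CPM. Of 15 matrix turnover genes, 9 were higher and 1 lower (median 1.10, HFD 0.22), led after Cemip by Adamtsl3 at 21.5 and 423 CPM.

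Of 33 cytoskeleton and adhesion genes, 9 were higher and 0 lower (median 0.59, HFD 0.20). Cald1, which binds actin and tropomyosin in smooth muscle and non-muscle cells, stood at 193 and 2038 CPM (3.40, 3.36 to 3.44) and at 251 and 907 CPM on HFD. Tpm2, a tropomyosin of striated and smooth muscle, had a fold of 2.20, and Actn1 and Tpm4, of non-sarcomeric actin filaments, had folds of 2.19 and 1.92. Of 18 fibroblast activation genes, 12 were higher and 0 lower (median 1.80, HFD 0.41), among them Tnc, the wound matrix protein tenascin C, at 12.3 and 187 CPM. Markers of other cells in the cardiomyocyte sums were read beside this: 12 fibroblast markers stood at a median of 8.75% of their fibroblast level in control cardiomyocytes and 10.7% in YAP5SA. Their ranges were 4.91 to 20.8% and 7.58 to 26.0%. Tnc lay inside both ranges and Col8a1, named above, inside that of YAP5SA. The part of fibroblast RNA in the differences of Tnc and Col8a1 was not tested. The 7 smooth muscle markers summed to 176 and 634 CPM on chow, with 4 higher and 2 lower, and to 249 and 197 CPM on HFD, and their part in the cytoskeleton and activation genes was not tested.

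In the lists of contraction, excitation and fuel use, lower genes outnumbered higher ones. Of 23 sarcomere genes, 10 were at least 2-fold lower and 2 higher (median -0.80, HFD -0.45). Myh6, the main adult myosin heavy chain, stood at 5159 and 2317 CPM, while the atrial and fetal light chains Myl4 and Myl7 stood at 14.4 and 49.0 CPM and at 6.80 and 18.8 CPM. Of 22 calcium handling and ion channel genes, 8 were lower and 1 higher (median -0.75, HFD -0.34). Kcnn2, a calcium-activated potassium channel, stood at 923 and 286 CPM on chow and at 875 and 307 CPM on HFD. The gene on the other side was Fgf12, a modulator of sodium channels, at 56.6 and 282 CPM.

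Of 23 fatty acid uptake and oxidation genes, 0 were higher and 10 lower on chow, with a median of -0.97, beside an HFD median of 0.19 with 2 higher and 1 lower. Slc27a1, a fatty acid transporter, stood at 90.2 and 22.2 CPM on chow and at 61.9 and 55.2 CPM on HFD. Cpt1b, which admits long-chain fatty acids to the mitochondrion, stood at 163 and 57.1 CPM on chow and at 130 and 64.0 CPM on HFD. Its liver isoform Cpt1a stood at 137 and 92.7 CPM on chow and at 57.6 and 138 CPM on HFD. Cpt1b was therefore the lower one in YAP5SA on both diets and Cpt1a on chow alone, and the difference between the diets was not tested.

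Of 20 PPAR, fasting and insulin responsive genes, 0 were higher and 8 lower on chow (median -0.69), and 6 were higher and 5 lower on HFD (median -0.15). Pdk4, which switches off pyruvate oxidation, stood at 400 and 260 CPM on chow and at 54.6 and 328 CPM on HFD. Txnip, a glucose-induced inhibitor of glucose uptake, stood at 355 and 235 CPM on chow and at 52.0 and 495 CPM on HFD. In both genes the library titled control with HFD was the lowest of the 4, and it is one of the pair of libraries whose treatment entries name the other diet. Ppara, the receptor that drives fatty acid genes, was lower in YAP5SA on both, at 275 and 84.0 CPM on chow and 366 and 95.3 CPM on HFD. Of 32 oxidative phosphorylation and TCA cycle genes, 0 were higher and 6 lower (median -0.72, HFD -0.37).

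Most cell cycle genes of cardiomyocytes stayed within 2-fold: of 26 compared, 1 was at least 2-fold higher and 0 lower (median 0.38, HFD 0.33). Mki67, a proliferation marker, stood at 29.8 and 37.2 CPM (0.32, 0.20 to 0.45), Top2a, which untangles replicated DNA, at 62.5 and 82.6 CPM, and the cytokinesis formin Diaph3 at 56.0 and 196 CPM. Of 18 imprinted and neonatal growth genes, 7 were higher and 0 lower (median 0.29). Rian and Meg3, maternally expressed non-coding RNAs of the same imprinted cluster, stood at 20.3 and 129 CPM and at 108 and 410 CPM on chow, but at 44.1 and 41.5 CPM and at 245 and 180 CPM on HFD. Igf2bp1, an RNA-binding protein of fetal tissues, stood at 2.57 and 20.4 CPM on chow and at 2.06 and 12.0 CPM on HFD.

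UMIs of the 4 genes with the highest folds were found in a minority of YAP5SA cardiomyocytes, and at this depth a nucleus without one may still have held the RNA. After each nucleus was thinned to 1500 UMIs, which left out 48 control and 77 YAP5SA nuclei that were shallower, at least 1 UMI of Igfbp2, Slc22a22, Cemip or Ptchd4 was found in 25 of 3976 control cardiomyocytes (0.629%, 0.407 to 0.927%). In YAP5SA it was found in 1495 of 5219 (28.6%, 27.4 to 29.9%); without thinning the shares were 2.68% and 41.9%. On HFD the thinned shares were 0.554% and 13.1%. Among nuclei between the cuts, the share was 113 of 180 (62.8%, 55.3 to 69.9%) in YAP5SA and 0 of 44 in the control, with an upper limit of 8.04%. In other cells it was 2.27% and 8.72%. These do not measure background, since other cells of the control held Cemip and Ptchd4 at 339% and 367% of their cardiomyocyte level. These intervals are exact binomial ones, and the genes were chosen for their folds in the same nuclei, so the shares are a description.

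The other nuclei were compared first as 1 sum, in which more nuclei of a type and more RNA per nucleus cannot be told apart. Of 10426 genes, 255 (2.45%) stood higher in YAP5SA by 2-fold or more and 190 (1.82%) lower (median of all genes 0.06). On HFD, 532 (5.1%) of these genes were higher and 196 (1.88%) lower. The genes higher in both pairs numbered 130 (51.0% of the chow list, 24.4% of the HFD list), those lower in both 70 (36.8% and 35.7%), and 9 were opposite. Cardiomyocyte RNA was present in these sums: 14 cardiomyocyte markers stood at a median of 9.94% of their cardiomyocyte level in the control library (range 2.19 to 41.9%) and 17.7% in YAP5SA (3.78 to 55.6%), although their summed level was 1403 CPM in the control and 1226 CPM in YAP5SA. A gene high in cardiomyocytes can therefore appear here at such a share of its cardiomyocyte level. The sums also held a cluster of 19 control and 80 YAP5SA nuclei in which all 14 cardiomyocyte markers were present.

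Thbs4, a thrombospondin of injured and loaded muscle, had the highest fold in other cells, at 1.66 and 135 CPM (6.30, 5.68 to 7.101) on chow and 2.16 and 36.4 CPM on HFD. Its YAP5SA level was 245% of that in cardiomyocytes, above the whole range of the marker shares. Ccl2 stood at 9.89 and 199 CPM (4.33, 4.05 to 4.62), 578% of the YAP5SA cardiomyocyte level, and at 12.9 and 70.3 CPM on HFD. Its neighbour in the chemokine cluster, Ccl7, stood at 2.68 and 35.4 CPM. Ccr2, the receptor for both and a marker of cells that derive from monocytes, stood at 1.66 and 21.1 CPM (3.63, 2.98 to 4.44) and at 1.38 and 40.2 CPM on HFD. For all 4 genes the YAP5SA library was the higher in each pair, with the higher fold on chow except for Ccr2. Of the macrophage and inflammatory list, 10 of 40 genes were compared, with 3 higher and 0 lower (median 0.31), and 6 and 0 on HFD (median 1.35). The 10 macrophage markers summed to 391 and 458 CPM on chow and to 443 and 794 CPM on HFD, and macrophage-like nuclei numbered 103 and 215 on chow. With finer clusters, at resolution 1, a macrophage-like cluster led by Ccr2 held 12 control and 108 YAP5SA nuclei on chow, and 13 and 139 on HFD. A larger macrophage-like cluster held 91 and 107 on chow, and 191 and 403 on HFD. The part of these nuclei numbers in the Ccr2 difference was not tested.

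Tnc stood at 110 and 1057 CPM (3.26, 3.18 to 3.35) on chow and at 179 and 479 CPM on HFD. Ptgs2, the inducible cyclooxygenase, stood at 1.39 and 25.0 CPM, the Wnt antagonist Dkk2 at 2.49 and 26.9 CPM, and Ccn4, another CCN matricellular gene, at 4.07 and 33.5 CPM. Ccn4 held 18.9% of its cardiomyocyte level in the control and 28.6% in YAP5SA, inside the ranges of the marker shares. The part of carried-over RNA in the Ccn4 difference was not tested. With at least 1000 genes and at most 1% mitochondrial UMIs a nucleus, the folds of Ptgs2 and Dkk2 were 5.14 and 5.26, against 4.13 and 3.41. Ccn2 stood at 30.6 and 305 CPM and held 91.3% of its cardiomyocyte level in the control and 92.0% in YAP5SA. Fos, an immediate early transcription factor, stood at 2.59 and 21.8 CPM on chow and at 8.71 CPM in both HFD libraries. Of 20 immediate early genes, 11 were higher and 0 lower (median 1.07, HFD -0.01), and the median was 0.32 when a mean of 50 CPM was asked. Cemip stood at 14.1 and 111 CPM; its YAP5SA level was 14.3% of the cardiomyocyte level, inside the range of the marker shares, and the part of carried-over RNA in this difference was not tested. Its fold was 1.96 with the stricter cuts of 1.5% and 0.3%, against 2.96.

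Genes lower in other cells were led by Adra1a, the alpha-1A adrenergic receptor, at 38.0 and 1.98 CPM (-4.24, -4.88 to -3.70) on chow and 33.3 and 3.08 CPM on HFD. Clec3b, a plasminogen-binding matrix protein, stood at 38.3 and 3.44 CPM, and Scara5, a ferritin receptor found on adventitial fibroblasts, at 25.7 and 3.22 CPM. The proprotein convertase gene Pcsk6 stood at 383 and 66.9 CPM, and Cyp27a1, a sterol hydroxylase, at 45.2 and 9.23 CPM. The rest of the 12 lowest (Onecut2, Ccbe1, Trhde, Grm8, Zfp804b, Vipr2 and Hmcn2) had folds from -2.83 to -2.14 on chow and from -2.16 to -0.54 on HFD. Pcsk6, Hmcn2 and Ccbe1 are among the 10 genes that lead the largest fibroblast-like cluster, and Zfp804b leads the pericyte-like cluster.

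The other nuclei fell into 15 clusters, 13 of which took a class name from markers. The remaining 2 were left unnamed, among them a cluster with all 14 cardiomyocyte markers present. As shares of other nuclei in control and YAP5SA, fibroblast-like nuclei made up 46.9% and 38.6%, blood vessel endothelial-like 17.1% and 11.8%, endocardial-like 10.8% and 20.1%, epicardial-like 5.37% and 9.68%, pericyte-like 6.59% and 3.75%, and macrophage-like 4.49% and 6.78%. No direction is read from these shares, since genes that lead the clusters differed between the libraries, mitochondrial shares differed by class (a median of 2.75% and 2.24% in endocardial-like nuclei), and a stricter filter on nuclei moved the endocardial-like shares to 2.46% and 8.47%. The 3 classes with at least 200 nuclei in each chow library were compared as sums of their own. Sex and library differ with the group in each of these comparisons, and their part in the differences was not tested.

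Fibroblast-like nuclei (1076 control and 1223 YAP5SA, 4743627 and 5069506 UMIs) were the class with the most UMIs. Of 9928 genes, 568 (5.72%) stood higher by 2-fold or more and 373 (3.76%) lower, and on HFD 749 (7.54%) and 252 (2.54%). The genes higher in both pairs numbered 332 (58.5% of the chow list and 44.3% of the HFD list), those lower in both 157 (42.1% and 62.3%), and 7 were opposite. The median over all genes was 0.09. Defining fibroblast markers were present in both libraries but lower in YAP5SA, at 8854 and 6309 CPM summed over 12 markers, 4 of which were at least 2-fold lower. When other nuclei were clustered finer, at resolution 1, fibroblast nuclei of the chow libraries lay largely in different clusters. The largest cluster, led by Prg4, Col8a1, Thbs4 and Tnc, held 29 control and 656 YAP5SA nuclei. A cluster led by Tenm4 and Adra1a held 471 and 44, and one led by Efhd1, Scara5 and Clec3b held 232 and 8. In the class sum, a fold in each nucleus and a different mix of these clusters cannot be told apart.

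Thbs4 stood at 2.74 CPM (13 UMIs) in control fibroblast-like nuclei and 282 CPM in YAP5SA (6.63, 5.91 to 7.60), and at 2.84 and 59.5 CPM on HFD. Its YAP5SA level was 513% of that in cardiomyocytes. Add2, a membrane skeleton protein, gave 0 UMIs in the control and 54.8 CPM in YAP5SA, at least 86.7-fold higher, and 0.609 and 30.8 CPM on HFD. Runx1, a transcription factor of activated fibroblasts, stood at 2.74 and 68.3 CPM (4.59, 3.85 to 5.56), and Dkk2 at 0.632 CPM (3 UMIs) and 31.8 CPM, a ratio whose log2 interval ran from 4.08 to 7.94. Adra1a, Scara5 and Clec3b stood at 68.7 and 3.75, 47.9 and 2.76, and 66.0 and 5.33 CPM, so these genes, which lead the clusters held mostly by control nuclei, were low in the YAP5SA sum of this class as well. Plcxd3, Grm8 and Onecut2 completed the 6 lowest, with folds of -3.57, -3.49 and -3.27. At resolution 1, where the cluster led by Prg4 and Thbs4 took no name and was left out, the folds of Thbs4 and Adra1a were 8.77 and -3.42, against 6.63 and -4.16. Without the cluster led by cell cycle genes the fold of Dkk2 was 3.96, against 5.43.

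Fibroblast activation genes stood higher: 14 of 22 were at least 2-fold higher and 1 lower (median 1.43), and on HFD 11 were higher and 0 lower (median 0.97). Tnc stood at 204 and 2206 CPM (3.43, 3.34 to 3.53) on chow and at 294 and 842 CPM on HFD. Col8a1, a short-chain collagen of remodelling vessels and scars, stood at 269 and 2066 CPM on chow and at 247 and 1829 CPM on HFD. Acta2, the smooth muscle actin of myofibroblasts, stood at 17.3 and 97.8 CPM on chow and at 21.7 and 49.9 CPM on HFD. The contractile gene Tagln stood at 20.2 and 107 CPM on chow but 28.8 and 21.5 CPM on HFD. Postn, periostin, was within the 2-fold limit at 1297 and 2348 CPM, and the exception was Fap, a surface protease of activated fibroblasts, at 285 and 124 CPM. The 7 smooth muscle markers summed to 66.6 and 224 CPM in this class (76.5 and 97.7 CPM on HFD), and their part in the contractile genes was not tested.

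Most matrix genes of fibroblasts stayed within 2-fold. Of 44 collagen and matrix genes, 5 were higher and 2 lower, with a median of -0.07 (HFD 0.08). Col1a1 stood at 713 and 667 CPM, Col3a1 at 2171 and 1405 CPM, and elastin, Eln, at 837 and 380 CPM on chow and 1090 and 366 CPM on HFD. Matrix turnover genes were split, with 5 higher and 5 lower of 20: the inhibitor Timp1 stood at 3.37 and 44.4 CPM, while Adamtsl1 stood at 129 and 27.6 CPM and Mmp2 at 129 and 50.7 CPM. The growth factor Tgfb1 stood at 20.7 and 122 CPM (2.56, 2.26 to 2.89), and the cytokine Il6 at 1.26 CPM (6 UMIs) and 22.1 CPM. Of 31 receptors for cardiomyocyte ligands, 1 was higher, Pdgfrb at 70.4 and 192 CPM, and 4 were lower, among them Tek, the angiopoietin receptor of endothelium, at 301 and 73.0 CPM. The 12 blood vessel endothelial markers, Tek included, summed to 1554 and 785 CPM in this class and to 1812 and 969 CPM on HFD. On chow 3 of them were lower and 1 higher, and the part of endothelial RNA in the Tek difference was not tested.

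YAP and TEAD targets in fibroblast-like nuclei were apart in a few members: 4 of 17 were higher and 0 lower, with a median of 0.05. These were Ccn2 at 35.6 and 395 CPM (3.47, 3.24 to 3.71), Ccn1 at 32.0 and 130 CPM, Ankrd1 at 25.9 and 131 CPM and Gadd45b at 5.27 and 18.3 CPM. Ccn2 stood at 119% of its cardiomyocyte level in YAP5SA, above the range of 2.28 to 94.4% over the cardiomyocyte markers in this class. Ccn1 and Ankrd1 lay inside that range in YAP5SA, Ankrd1 below the marker median of 15.4%. The upper end of the range was set by Cmya5, which stood at 5.86% of its cardiomyocyte level in the control. In the control, Ccn1 stood higher in this class than in cardiomyocytes. The part of carried-over RNA in the Ccn1 and Ankrd1 differences was not tested. Amotl2 and Tgfb2, which were at least 2-fold higher in cardiomyocytes, were not among them: Amotl2 stood at 37.5 and 39.1 CPM and Tgfb2 at 179 and 127 CPM.

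Cell cycle genes of the fibroblast-like class stood higher, with 24 of 37 at least 2-fold higher and 0 lower (median 1.18), and 31 and 0 on HFD (median 1.501). Top2a stood at 90.4 and 263 CPM (1.54, 1.38 to 1.70) on chow and at 77.9 and 290 CPM on HFD, and Mki67 at 40.5 and 102 CPM on chow and 33.1 and 116 CPM on HFD. A cluster led by cell cycle genes held 80 control and 328 YAP5SA nuclei of the class, and without it the median was 0.54.

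Immediate early genes stood higher on chow, with 12 of 19 at least 2-fold higher and 0 lower (median 1.35), beside 3 and 3 on HFD (median 0.06). Egr1, induced within minutes of a stimulus, stood at 70.0 and 244 CPM on chow and at 80.2 and 83.6 CPM on HFD. Junb stood at 15.8 and 116 CPM on chow and at 27.5 and 60.0 CPM on HFD, and the orphan receptor gene Nr4a3 at 7.17 and 27.8 CPM on chow and 36.3 and 5.67 CPM on HFD. Of 20 glycolysis genes, 6 were higher and 1 lower (median 0.31, HFD 0.24), led by Hk2, a hexokinase, at 8.01 and 81.3 CPM on chow and 29.3 and 47.2 CPM on HFD. The difference between the diets was not tested.

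Blood vessel endothelial-like nuclei (393 and 375, 1623062 and 1185492 UMIs) had 343 of 9572 genes (3.58%) at least 2-fold higher and 214 (2.24%) lower, and on HFD 512 (5.35%) and 291 (3.04%). Their defining markers summed to 11420 and 12359 CPM. Higher in both pairs were 94 genes (27.4% of the chow list, 18.4% of the HFD list). Lower in both were 63 (29.4% and 21.6%), and 23 were opposite. Inhbb, an activin subunit, gave 1 UMI in the control (0.616 CPM) and 40.5 CPM in YAP5SA, with a log2 interval of 3.49 to 11.37. Ccn2 stood at 11.1 and 105 CPM (3.20, 2.52 to 4.04) and at 12.7 and 68.2 CPM on HFD, and Ier3, an early response gene, at 5.55 and 49.8 CPM. Cemip, at 2.46 and 38.0 CPM, stood at 4.92% of its cardiomyocyte level in YAP5SA, within the marker range of 2.43 to 65.9%. Ccn2, at 31.5%, lay within that range as well, and the part of carried-over RNA in both differences was not tested. With clusters cut at resolution 1 the fold of Cemip was 1.70, against 3.79, and at resolution 2 that of Inhbb was 3.50, against 5.47.

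Cell cycle genes of the endothelial-like class stood lower in YAP5SA: 0 of 35 were higher and 12 lower (median -0.86), and on HFD 0 and 15 (median -0.90). Top2a stood at 189 and 70.0 CPM (-1.43, -1.80 to -1.08) on chow and at 146 and 68.2 CPM on HFD, and Mki67 at 125 and 47.2 CPM on chow and 85.3 and 39.8 CPM on HFD. With clusters cut finer the chow median was -0.35. Stmn1, a microtubule regulator high in dividing cells, stood at 43.1 and 8.44 CPM. The other 5 of the 6 lowest, Nxph1, Ceacam2, Clmn, Tppp and Fshr, rested on 3 to 6 YAP5SA UMIs, with the Nxph1 interval running from -5.84 to -1.88, and 3 of them had HFD folds above 0.

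Of 33 genes of endothelial growth, tip cells and capillaries, 5 were higher and 3 lower (median -0.09). The arterial genes Gja4, Gja5, Dll4 and Sox17 had folds of 1.82, 1.38, 1.09 and 1.03, and Rgcc, a complement response gene, 1.04. Gja5 and Sox17 are among the genes that lead the smaller cluster of the class, which held 17 control and 46 YAP5SA nuclei. Apln, the peptide of sprouting tip cells, stood at 67.2 and 23.6 CPM on chow and at 57.7 and 9.48 CPM on HFD, and the capillary transcription factor Meox2 at 368 and 160.3 CPM. Of 19 glycolysis genes, 5 were higher and 0 lower (median 0.60, HFD -0.02), among them the glucose transporter Slc2a1 at 4.31 and 23.6 CPM on chow and 6.56 and 5.69 CPM on HFD. Red cell RNA stood higher beside these values: 5 erythroid markers summed to 420 and 2366 CPM on chow and to 685 and 399 CPM on HFD, and Hbb-bt, a beta globin, to 26.5 and 273 CPM on chow. The part of red cell RNA in the difference was not tested.

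Endocardial-like nuclei (248 and 637, 1485246 and 2710195 UMIs) had 269 of 9512 genes (2.83%) at least 2-fold higher and 244 (2.57%) lower, and on HFD 363 (3.82%) and 263 (2.76%). Their 8 defining markers summed to 7925 and 6210 CPM. Higher in both pairs were 73 genes (27.1% of the chow list, 20.1% of the HFD list). Lower in both were 65 (26.6% and 24.7%), and 19 were opposite. Ccl2 gave 1 UMI in the control (0.673 CPM) and 116 CPM in YAP5SA, a ratio with a log2 interval of 4.94 to 12.73, and stood at 12.8 and 31.1 CPM on HFD. Inhba stood at 18.9 and 344 CPM (4.17, 3.65 to 4.79) and at 44.1 and 256 CPM on HFD, 323% of its cardiomyocyte level in YAP5SA. Olr1, a scavenger receptor for oxidised lipoprotein, stood at 1.35 CPM (2 UMIs) and 66.0 CPM with a log2 interval of 3.74 to 8.67, and Hbegf, a ligand of the epidermal growth factor receptor, at 5.39 and 67.5 CPM. YAP5SA was the higher library of each pair in these 4 genes. At the finest clustering the folds of Ccl2 and Olr1 were 3.99 and 2.69, against 6.84 and 5.30.

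Of 16 YAP and TEAD targets in endocardial-like nuclei, 3 were higher and 0 lower (median 0.14). Ccn2 stood at 31.0 and 425 CPM on chow and 41.4 and 140 CPM on HFD, Ccn1 at 29.0 and 297 CPM on chow and 59.2 and 54.3 CPM on HFD, and Ankrd1 at 33.7 and 121 CPM. In YAP5SA the cardiomyocyte markers stood at 2.08 to 38.3% of their cardiomyocyte level in this class. Ankrd1 lay inside that range and Ccn2 and Ccn1 above it, and the part of carried-over RNA in the Ankrd1 difference was not tested. Of 18 glycolysis genes, 3 were higher and 1 lower (median 0.81, HFD 0.09). Of 13 immediate early genes, 7 were higher and 0 lower (median 1.09, HFD -0.24), but the median was -0.02 when clusters were cut at the finest setting and 0.15 when a mean of 50 CPM was asked. Edn1, endothelin 1, stood at 142 and 290.0 CPM on chow and 118 and 85.0 CPM on HFD.

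The lowest folds in endocardial-like nuclei included genes that lead other clusters: Adamts19 and Pcsk6, which lead the fibroblast-like cluster, stood at 71.4 and 5.90 CPM and 68.0 and 6.27 CPM, and Mdga2, which leads the pericyte-like cluster, at 23.6 CPM and 1.11 CPM (3 UMIs), with a log2 interval of -6.76 to -2.75. The 8 pericyte markers summed to 247 and 89.7 CPM here and the 12 fibroblast markers to 2257 and 1833 CPM, and their part in these folds was not tested. Abca6, Csmd3 and Iigp1 completed the 6 lowest. Iigp1, an interferon-induced GTPase, stood at 24.9 and 2.21 CPM on chow and at 2.33 and 17.3 CPM on HFD. Erythroid markers summed to 283 and 2658 CPM in this class and to 578 and 291 CPM on HFD, while in fibroblast-like nuclei they summed to 200.5 and 191 CPM on chow and to 390.2 and 944 CPM on HFD. With clusters cut finer, the folds of Adamts19 and Csmd3 were 0.34 and 0.08, and those of Pcsk6, Abca6 and Mdga2 were -1.47, -1.43 and -1.50, against -3.40, -3.78 and -4.21.

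**Figure D3:**
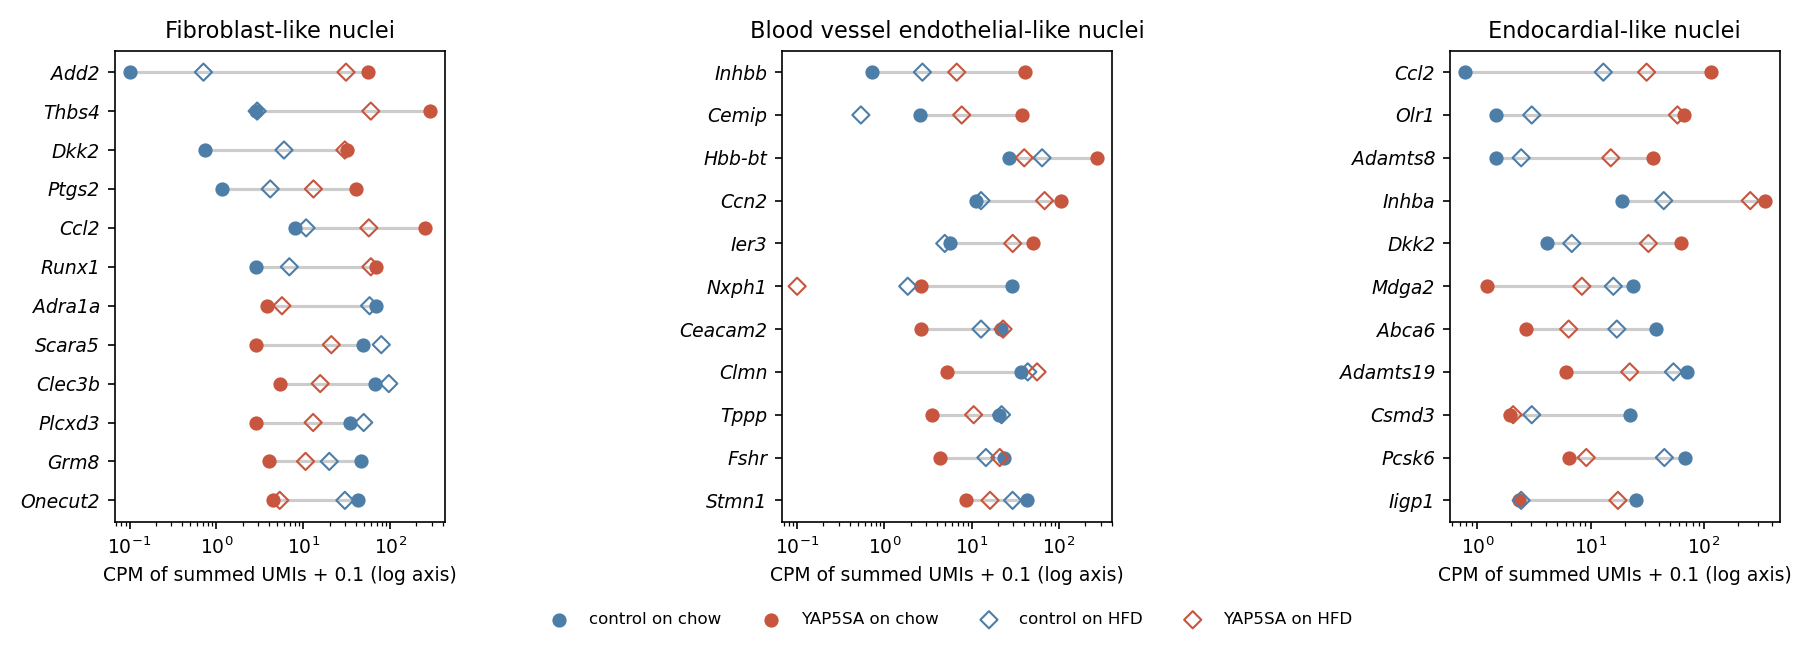
Levels (CPM + 0.1, log axis) of the named genes with the highest and the lowest chow folds in fibroblast-like, blood vessel endothelial-like and endocardial-like nuclei, 1 point a library, chow as filled circles and HFD as open diamonds, control blue and YAP5SA red. Thbs4 in fibroblast-like nuclei moves from 2.74 to 282 CPM on chow, and the HFD diamonds of Iigp1 lie in the opposite order to its circles.

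**Figure D4:**
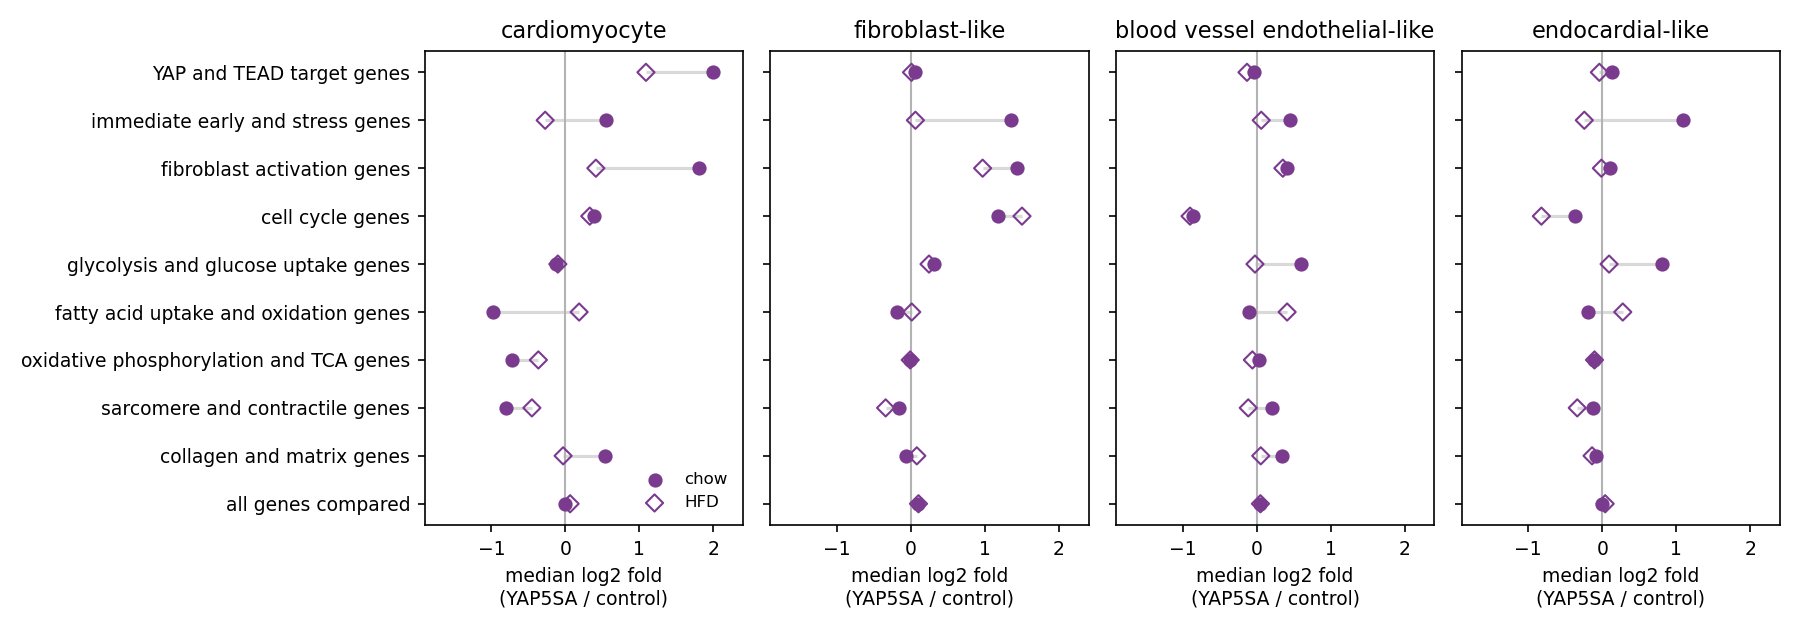
Median log2 fold (YAP5SA over control) of 9 gene lists and of all genes compared in cardiomyocyte, fibroblast-like, blood vessel endothelial-like and endocardial-like nuclei, chow as filled and HFD as open symbols. Cell cycle genes lie above 0 in fibroblast-like nuclei (1.18) and below 0 in endothelial-like nuclei (-0.86), and immediate early genes lie above 0 on chow and near or below 0 on HFD.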

How the data were processed

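Single-nucleus RNA libraries of 4 groups (control and YAP5SA, each on chow and on HFD) were read as the raw UMI counts per gene and barcode that the authors deposited. Cell Ranger 7.1.0 and the mouse build mm10 are named, per the submitters' processing notes. Each matrix had 32291 features, of which 6 were added sequences, and gene positions came from GENCODE vM21. Nuclei were kept, classed and summed as described above, with Python 3.11.15, numpy 2.4.6 and scipy 1.17.1. Log2 folds were computed from CPM with 0.5 counts added, with exact conditional binomial intervals of 95%, and genes were compared at a mean of at least 10 CPM over the chow pair and counted at 2-fold.

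Named genes were the 12 highest and 12 lowest folds of the cardiomyocyte and other sums and the 6 highest and 6 lowest of each class, with at least 30 UMIs in 1 library, leaving out the 6 genes of the rule, mitochondrial, sex-linked and predicted genes. In each of 21 lists, the 4 members with the highest level and the highest and lowest fold followed the same rule, and other list members were named after their values were seen. Some genes that meet the rule are not reported here, but they remain in every count and median. The members and lists were chosen with earlier results of these data known. Other nuclei were clustered with scanpy 1.11.5 and igraph 0.11.9 (3000 variable genes, 30 components, 15 neighbours, Leiden resolution 0.2). That resolution was chosen after seeing the data in place of 1, because at 1 a fibroblast cluster was led by a cardiomyocyte marker and by none of its own. Doublets were left in, and an alternative without those called by Scrublet was run. edgeR 4.0.16 and DESeq2 1.42.0 in R 4.3.3 gave scaling factors for alternatives only. The fold rule and intervals were run on simulated sums with known changes, drawn with counting error only. Differences between nuclei, animals or libraries were not simulated, so the run does not bear on them. No test was made, since each group had 1 library.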

Additional observations from a re-analysis of the deposited data

Results flagged for a closer look

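Several chow values had the opposite sign on HFD, and in each case the difference was not tested. Among single genes these were Hbb-bt in blood vessel endothelial-like nuclei (log2 fold 3.35 on chow and -0.67 on HFD) and Iigp1 in endocardial-like nuclei (-3.40 and 2.82).

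Among gene lists in cardiomyocytes, the median of fatty acid uptake and oxidation genes was -0.97 on chow and 0.19 on HFD. Collagen and matrix genes had medians of 0.53 and -0.03, endothelial growth genes of 0.59 and -0.03, and immediate early and stress genes of 0.55 and -0.27. Immediate early and stress genes also had medians of 1.07 and -0.01 in other nuclei and of 1.09 (1.085 before rounding) and -0.24 in endocardial-like nuclei. Glycolysis genes in blood vessel endothelial-like nuclei had medians of 0.60 and -0.02.

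A sequence named nsp13 that was added to the reference, and that no comparison used, gave 475 UMIs in YAP5SA cardiomyocytes on chow and 0 in control cardiomyocytes. On HFD it gave 174 and 1 UMIs in cardiomyocytes. It was not confined to that class. In YAP5SA on chow it gave 38 UMIs (26.5 CPM) in nuclei between the cuts and 46 (3.37 CPM) in other nuclei, beside 13.7 CPM in cardiomyocytes. The chow control gave 0 UMIs in both.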

How the results depend on the processing

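No paired analysis was possible because each group had 1 library, and for the same reason no replicate could be left out. The limits of depth are the low-count genes and the smaller classes. When a mean of 50 CPM was asked, the genes 2-fold higher and lower numbered 283 and 167 in cardiomyocytes, 77 and 71 in other nuclei, 175 and 145 in fibroblast-like, 58 and 36 in blood vessel endothelial-like and 87 and 44 in endocardial-like nuclei, since fewer genes were compared. With no filter on low counts they numbered 4414 and 3036 in cardiomyocytes and 3225 and 2684 in other nuclei.

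With clusters cut at resolution 1, 142 genes were lower in blood vessel endothelial-like and 404 higher in endocardial-like nuclei, and the endocardial-like folds of Adamts19 and Csmd3 reversed to 0.34 and 0.084. At resolution 2, 742 were higher and 556 lower in endocardial-like nuclei, and the median of immediate early genes there reversed to -0.024. The cause was not tested. Under DESeq2 size factors all 84 named folds kept their sign and stayed past 2-fold, as did all 48 of the cardiomyocyte and other sums with TMM factors, Scrublet doublets left out, stricter filters, stricter cuts or means over nuclei. At resolution 1, 34 of 36 class folds kept their sign.

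With at least 1000 genes and at most 1% mitochondrial UMIs, control and YAP5SA shares were 74.3% and 71.6% for cardiomyocytes and 25.2% and 26.3% for other nuclei, and 0.543% for nuclei between the cuts in the control. Class shares of other nuclei were then 60.3% and 53.3% (fibroblast-like), 8.16% and 7.87% (blood vessel endothelial-like), 2.46% and 8.47% (endocardial-like), 3.46% and 7.22% (epicardial-like) and 10.008% and 5.21% (pericyte-like), with 6.39% macrophage-like in the control. With cuts of 1.5% and 0.3%, cardiomyocytes made up 50.7% of YAP5SA nuclei, other nuclei 33.3% and 34.7%, and those between 4.38% and 14.6%. Without doublets, cardiomyocytes made up 61.8% and 59.8% and other nuclei 37.3% and 38.1%. At resolution 1 the class shares were 45.7% and 17.9% (fibroblast-like, without the cluster led by Prg4 and Thbs4), 19.5% and 13.4% (blood vessel endothelial-like) and 8.46% and 17.2% (endocardial-like). At resolution 2 they were 22.1% and 20.8% (blood vessel endothelial-like), 4.36% and 2.81% (endocardial-like) and 4.54% (pericyte-like, YAP5SA).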

Other observations

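Cmya5, a large muscle protein of the costamere, stood at 18.8 CPM in control fibroblast-like nuclei and 146 CPM in YAP5SA on chow, and at 42.1 and 108 CPM on HFD. In YAP5SA on chow this was 94.4% of its cardiomyocyte level, against 5.86% in the control, while Ttn stood at 1.496% of its cardiomyocyte level in the control and 1.20% in YAP5SA. A cluster of 19 control and 80 YAP5SA other nuclei was led by Cemip, Kcnh7, Pak3 and Ptchd4. Of these, Cemip, Pak3 and Ptchd4 are among the highest folds in cardiomyocytes. All 14 cardiomyocyte markers were present in the cluster, whose median nucleus gave 0.373% of its UMIs to the 6 genes. It matched the cardiomyocyte markers best and was left without a class name. The part of these nuclei in the other-cell values of Cemip and Ptchd4 was not tested.

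Clock and glucocorticoid responsive genes of cardiomyocytes were 3 higher and 4 lower of 18 compared (median -0.52, HFD -0.36). Zbtb16, a glucocorticoid-induced zinc finger factor, stood at 128 and 31.5 CPM, the clock repressor Per3 at 62.4 and 18.2 CPM, and the clock activator Arntl at 21.7 and 46.8 CPM. The interferon and antigen presentation list had 0 of 10 genes past 2-fold in either direction in cardiomyocytes (median -0.26) and 0 of 17 in other nuclei (median -0.14). Over all genes compared, 7.47% were higher and 5.17% lower in cardiomyocytes, and 2.45% and 1.82% in other nuclei. With so few genes listed, counts of 0 do not set this list apart.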
